A study of Mus musculus with 12 samples.

Results

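The 8 transcripts described here belong to the Dlk1-Dio3 imprinted region of mouse chromosome 12. They were chosen by gene symbol from the 57132 features of the count table, and they are Dlk1, Meg3, Rtl1, Rian, Gm37899, B830012L14Rik, Mirg and Dio3. The symbols were picked with earlier genotype results of these libraries known, so the genotype differences of the 8 transcripts are given as descriptions and not as tests. RNA sequencing was carried out on the striatum, dissected from a coronal slice without the cortex, of 6 TAAR5-KO mice, which lack the trace amine-associated receptor 5, and of 6 WT mice. All mice were C57Bl/6 littermates aged 10 months and of both sexes, and no treatment of either group was named. The libraries NK1 to NK6 carried the label TAAR5-KO and NK7 to NK12 the label WT, and no library was tied to an animal or a sex. Counts of Taar5 itself went against these labels, with 1 to 6 counts in each library labelled TAAR5-KO and 0 to 2 in those labelled WT, so every direction below follows the label only.

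The region is a classical example of genomic imprinting, in which a gene is read from the chromosome of one parent. Its protein-coding genes, namely Dlk1, a Notch-related transmembrane protein of progenitor cells, Rtl1, a protein derived from a retrotransposon, and Dio3, the deiodinase that inactivates thyroid hormone, are read from the paternal chromosome. The long non-coding RNAs Meg3, Rian and Mirg, together with the microRNAs and small nucleolar RNAs (snoRNAs) that lie in their introns and exons, are read from the maternal chromosome, and in the brain the non-coding RNAs of the region are known for their high level in neurons. The counts did not separate the parental chromosomes. In whole tissue, fewer cells of a type and less RNA per cell cannot be told apart.

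By the annotation of the count table on GRCm39, all of the transcripts except Rtl1 lay on the plus strand of chromosome 12. Dlk1 extended from 109418749 to 109429262, and Meg3 (ENSMUSG00000021268.19) from 109506879 to 109538165. Rtl1 was annotated on the minus strand from 109555627 to 109566764. Rian (ENSMUSG00000097451.12) occupied 109570242 to 109628150, followed by Gm37899 (ENSMUSG00000102657.2) from 109635303 to 109644019 and B830012L14Rik (ENSMUSG00000098202.3) from 109642711 to 109680989. Mirg (ENSMUSG00000097391.9) extended from 109696198 to 109715894, and Dio3 from 110245502 to 110247531. Gm37899 was a feature of 1 exon block in the TEC class, which marks transcribed stretches whose coding status awaits an experiment. It shared 897 of its 8717 exon bases (10.3%) with other features on the same strand, mainly B830012L14Rik, so counts of these neighbours are uncertain. Rtl1 shared 516 of its 6358 exon bases (8.12%) with 6 microRNA hairpins on the opposite strand, and since the strand setting of the counting was not named, its counts could hold reads of the antisense transcript.

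The window around the start of Meg3 is shown because Meg3 held the most counts of the region and was among the transcripts with a genotype difference, and that of Dlk1 because Dlk1 is the first protein-coding gene on the other side of that start and was not called. Both were taken from RefSeq and lay, 250 bases before to 50 after the start, at chr12:109506629-109506928 (Meg3, plus strand) and chr12:109418499-109418798 (Dlk1, plus strand) of GRCm39. Capitals mark TGACGTCA, the full cAMP response element, and the letters of 3 further promoter motifs on either strand, which are the TATA box (TATAAA), the CCAAT box and the GC box (GGGCGG).
Meg3: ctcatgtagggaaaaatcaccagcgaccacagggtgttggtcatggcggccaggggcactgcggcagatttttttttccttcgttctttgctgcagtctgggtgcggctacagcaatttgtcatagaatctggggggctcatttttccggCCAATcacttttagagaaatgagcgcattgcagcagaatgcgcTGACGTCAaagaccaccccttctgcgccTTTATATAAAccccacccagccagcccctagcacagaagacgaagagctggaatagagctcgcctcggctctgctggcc
Dlk1: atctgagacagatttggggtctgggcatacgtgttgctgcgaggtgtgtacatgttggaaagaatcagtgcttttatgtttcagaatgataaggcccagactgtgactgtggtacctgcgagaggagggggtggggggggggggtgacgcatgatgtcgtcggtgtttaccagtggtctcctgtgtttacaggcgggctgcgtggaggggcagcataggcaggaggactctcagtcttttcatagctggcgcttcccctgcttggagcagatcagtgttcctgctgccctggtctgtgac

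In the Meg3 window, TGACGTCA began 57 bases before the start, TATAAA 25 bases before it and CCAAT 100 bases before it. The same 8 letters were found in 588 of 32851 mouse promoter windows of this length (1.79%), TATAAA or its reverse TTTATA in 13.6%, CCAAT in 37.4% and GGGCGG in 35.7%, each on either strand. The 2 orientations of TATAAA overlapped each other in the Meg3 window. In the Dlk1 window none of the 4 motifs was matched. These matches are letters in a window, and binding of a factor was not measured here.

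The microRNAs of the region are shown for Mirg and B830012L14Rik, whose spans held 14 and 9 hairpins on their own strand, out of the 61 that were matched to RefSeq by name among 67 annotated in the region. The 61 carried 114 mature sequences with 104 distinct seeds, the bases 2 to 8 that pair with target RNAs. Only 10 seeds were shared by several hairpins of the region. The examples below are printed 5′ to 3′ with the seed in capitals, and each pair shares its seed.
mmu-miR-379-3p (span of B830012L14Rik): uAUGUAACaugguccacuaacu
mmu-miR-411-3p (span of B830012L14Rik): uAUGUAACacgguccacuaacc
mmu-miR-1197-5p (span of B830012L14Rik): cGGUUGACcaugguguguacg
mmu-miR-758-5p (span of B830012L14Rik): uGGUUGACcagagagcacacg
mmu-miR-453 (span of Mirg): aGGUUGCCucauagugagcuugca
mmu-miR-496a-5p (span of Mirg): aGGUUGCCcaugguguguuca
mmu-miR-494-5p (between B830012L14Rik and Mirg): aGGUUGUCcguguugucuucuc
mmu-miR-410-5p (span of Mirg): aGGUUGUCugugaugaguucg

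These libraries were made from longer RNA and did not measure mature microRNAs. All 67 hairpin features together held 115 counts over the 12 libraries, and 37 of them had 0 counts throughout. The 23 snoRNA features held 33 counts. The 8 transcripts therefore carried 99.7% of the 62606 counts on the 117 features between Dlk1 and Dio3. Of the other 109 features, 6 reached 10 counts in total, namely Gm34081 with 17, Mir341 with 13, Mir1188, Mir666 and Dio3os with 11 each and Gm34785 with 10, and none passed the filter for testing.

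Levels below are CPM, that is counts per 1e6 counts, on library sizes scaled by the trimmed mean of M-values (TMM) of edgeR, a factor that ran from 0.375 to 2.47. Total counts ran from 11269915 to 34824450 per library, of which 64.3 to 88.1% were ribosomal RNA, and a floor of 3 counts corresponded to 0.0679 to 0.362 CPM. The likelihood ratio test of edgeR was fitted on all 13902 features that passed the filter, and a feature was called where its p, adjusted by Benjamini and Hochberg's method, was under 0.1. Markers of D1 and D2 medium spiny neurons, the main cells of the striatum, were present in every library, with summed levels of 17.1 to 45.8 CPM and 62.0 to 120 CPM. Of the 8 transcripts, 7 passed the filter and Dio3 did not.

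Per kilobase of exon, Meg3 was the most abundant of the 8, with 8.35 ± 1.86 CPM per kb in libraries labelled TAAR5-KO and 5.10 ± 0.944 in those labelled WT (SD, n = 6 each). Its mean over all 12 libraries ranked 9 among 704 long non-coding RNAs tested. Rian followed with 3.92 ± 0.478 and 3.10 ± 0.352 CPM per kb, which was rank 23 among the same RNAs. Dlk1 lay next in order, at 0.687 ± 0.308 and 0.751 ± 0.0370 CPM per kb. Then came Mirg (0.513 ± 0.0419 and 0.337 ± 0.0376), B830012L14Rik (0.449 ± 0.124 and 0.269 ± 0.0412), Gm37899 (0.409 ± 0.0825 and 0.207 ± 0.0565) and Rtl1 (0.195 ± 0.0539 and 0.142 ± 0.0638 CPM per kb). The neighbours from Mirg to Gm37899 overlapped within 1 SD in libraries labelled TAAR5-KO. Together, Meg3 and Rian held 93.1 to 94.9% of the counts of the 8 transcripts in each library. The 8 transcripts made up 0.155% ± 0.0558 of the counts outside ribosomal RNA in libraries labelled TAAR5-KO and 0.117% ± 0.0192 in those labelled WT (SD, n = 6 each), and the ranges of 0.102 to 0.231% and 0.0980 to 0.145% overlapped.

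To compare the genotypes, the non-coding RNAs of the maternal chromosome were examined first. Meg3, a long non-coding RNA with growth-suppressing functions, had 113 CPM in the lowest, 168 at the median and 203 in the highest of the 6 libraries labelled TAAR5-KO. In the libraries labelled WT, the lowest was 75.1, the median 99.7 and the highest 123 CPM. The libraries NK3 (113 CPM) and NK4 (122 CPM) lay within the range of the WT label, and the other 4 lay above all of it. The means were 159 ± 35.4 and 97.3 ± 18.0 CPM (SD, n = 6 each), a fitted 1.64-fold difference (log2 fold change 0.71, SE 0.15).

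Rian, the host transcript of a large group of C/D box snoRNAs, ran from 109 to 144 CPM with a median of 123 in libraries labelled TAAR5-KO. It ran from 85.7 to 116 CPM with a median of 98.8 in libraries labelled WT. Only NK1, NK2 and NK5 exceeded all libraries labelled WT, and the 1.27-fold difference (log2 fold change 0.34, SE 0.11) did not pass the threshold. Relative to Meg3 in the same library, Rian per base was lower by 0.36 on the log2 scale in libraries labelled TAAR5-KO, since its ratio to Meg3 averaged −1.07 ± 0.288 against −0.71 ± 0.141 (SD, n = 6 each).

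Gm37899, which has no assigned function, showed the highest fold of the 8. Its lowest, median and highest levels were 3.03, 3.37 and 4.98 CPM in libraries labelled TAAR5-KO, against 1.11, 1.79 and 2.52 CPM in those labelled WT. The groups did not overlap, and the counts behind them ran from 14 to 131 per library. The fitted difference was 2.01-fold (log2 fold change 1.01, SE 0.18).

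B830012L14Rik, the neighbouring long non-coding RNA whose span holds the first hairpins of the microRNA cluster shown above, ran from 3.49 to 7.89 CPM with a median of 5.04 in libraries labelled TAAR5-KO. In libraries labelled WT it ran from 2.60 to 3.72 CPM with a median of 3.13. All libraries labelled TAAR5-KO except NK3 lay above the range of the WT label, and NK1 was the highest, as it was for Meg3 and Gm37899. NK1 also had the lowest TMM factor (0.375), which raises its CPM. Its share of the 8 transcripts in counts outside ribosomal RNA (0.102%) was the lowest under the TAAR5-KO label. The difference was 1.68-fold (log2 fold change 0.75, SE 0.17).

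Mirg, the host of the microRNAs at the far end of the cluster, was counted 17 to 154 times per library. It ran from 3.41 to 4.03 CPM with a median of 3.76 in libraries labelled TAAR5-KO and from 2.05 to 2.76 CPM with a median of 2.45 in those labelled WT. The groups were fully apart, and the coefficient of variation within each (8.17% and 11.2%) was below the 12.9% and 16.2% that counting error alone would give on average. The difference was 1.54-fold (log2 fold change 0.63, SE 0.12).

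Of the 7 transcripts tested, 4 (Meg3, Gm37899, B830012L14Rik and Mirg) were called higher in libraries labelled TAAR5-KO and 0 lower. Over all features tested, 0.957% were called higher and 1.65% were called in either direction. Without any overlap between the labels were 2 of the 7, against 0.619% of all features with every library labelled TAAR5-KO above every library labelled WT. The log2 fold changes of the 7 had a median of 0.63, against −0.0061 over all features. As the choice of the transcripts used this contrast, nothing is read from these shares. The quasi-likelihood test of edgeR called the same 4 higher (0.309% of all features tested), and DESeq2 called these 4 and Rian higher (1.48% of the features to which it gave an adjusted p).

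**Figure D1:**
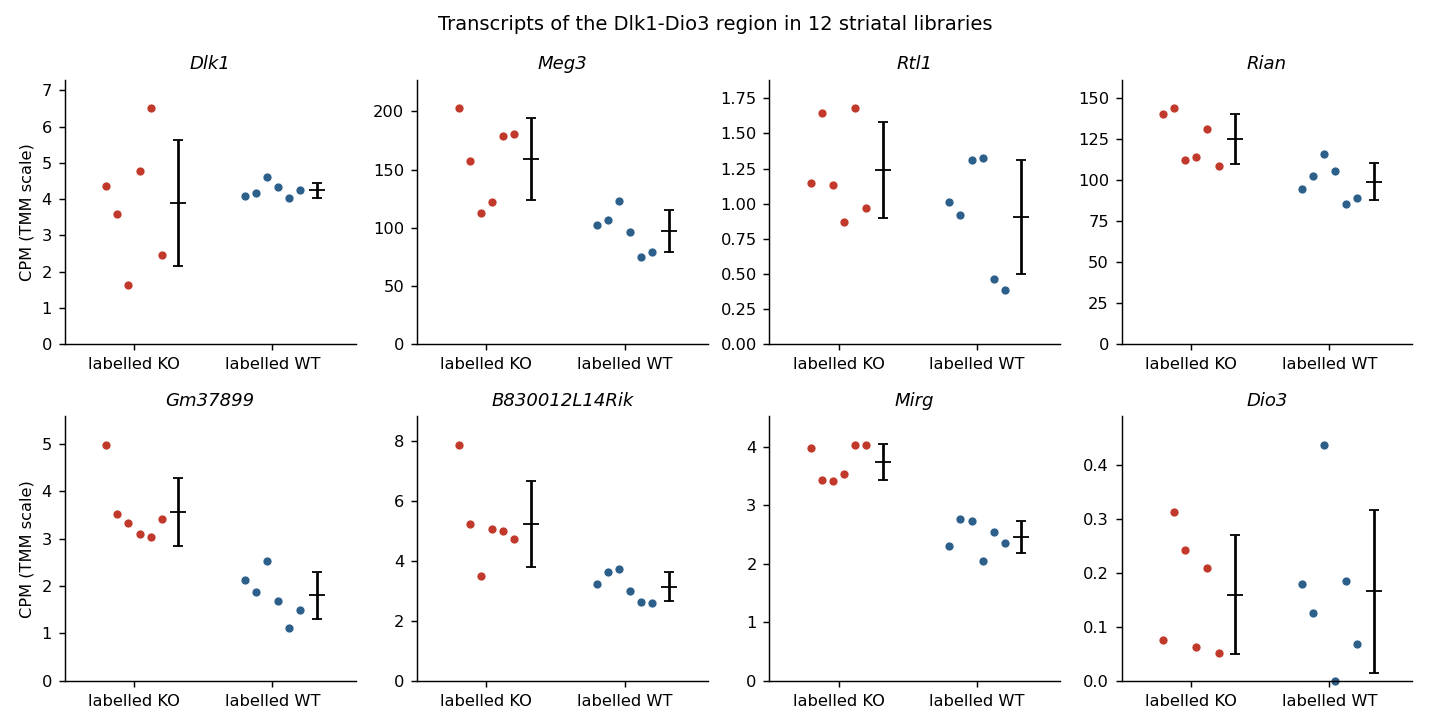
Level of each of the 8 transcripts in CPM on the TMM scale (vertical axes, each from 0) in the 6 libraries labelled TAAR5-KO (red) and the 6 labelled WT (blue), in the order NK1 to NK12 from left to right; black bars give the mean and SD. Gm37899 and Mirg show no overlap between the labels, while the Dlk1 points labelled WT lie close together between 4.02 and 4.60 CPM and those labelled TAAR5-KO spread from 1.62 to 6.51 CPM.

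Among the protein-coding genes of the paternal chromosome, none was called. Dlk1 ran from 1.62 to 6.51 CPM with a median of 3.98 in libraries labelled TAAR5-KO and from 4.02 to 4.60 CPM with a median of 4.22 in those labelled WT (log2 fold change −0.11, SE 0.23). Its libraries labelled TAAR5-KO fell on both sides of the others, with NK4 and NK5 above and NK2, NK3 and NK6 below all libraries labelled WT. The coefficient of variation was 44.8% against 4.92%, while counting error alone would give 14.1% and 12.1% on average. The sign depended on single libraries, as the log2 fold change was 0.0425 without NK3 and 0.0095 without NK6.

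Rtl1, with 10 to 40 counts per library, ran from 0.869 to 1.68 CPM in libraries labelled TAAR5-KO and from 0.385 to 1.33 CPM in those labelled WT (log2 fold change 0.58, SE 0.30). The groups overlapped, and NK11 and NK12 were the lowest libraries of all. Dio3 had between 0 and 5 counts in a library, and 4 or 5 counts in only NK2, NK5, NK7, NK9 and NK11, so no difference was detectable at this depth. Its mean was 0.160 ± 0.110 CPM in libraries labelled TAAR5-KO and 0.166 ± 0.151 CPM in those labelled WT (SD, n = 6 each).

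To describe the flanks of the region, the features within 1000000 bases outside Dlk1 and Dio3, which did not enter the choice of transcripts, were tested in the same fit. Of these 60 features 20 were tested, and none was called by the likelihood ratio test, the quasi-likelihood test or DESeq2, with 2 at an unadjusted p under 0.05. Over all features 1.65% were called by the likelihood ratio test and 11.9% had an unadjusted p under 0.05, so the counts in the flanks were near these shares. Their log2 fold changes ran from −0.30 to 0.54 with a median of −0.0080, and the smallest adjusted p was 0.216. Begain, the nearest tested gene before Dlk1 and known for a postsynaptic protein, had 5.74 ± 0.910 CPM in libraries labelled TAAR5-KO and 6.98 ± 0.749 CPM in those labelled WT (SD, n = 6 each). Its log2 fold change was −0.30. Wdr25, the next one, had 0.821 ± 0.152 and 0.835 ± 0.321 CPM. On the other side, Ppp2r5c, a regulatory subunit of protein phosphatase 2A, had 31.1 ± 3.73 and 33.6 ± 2.32 CPM, and Gm19605 had 0.395 ± 0.227 and 0.324 ± 0.138 CPM (SD, n = 6 each). Between the flanks, the called transcripts formed a run from Meg3 to Mirg that also held Rian and Rtl1.

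**Figure D2:**
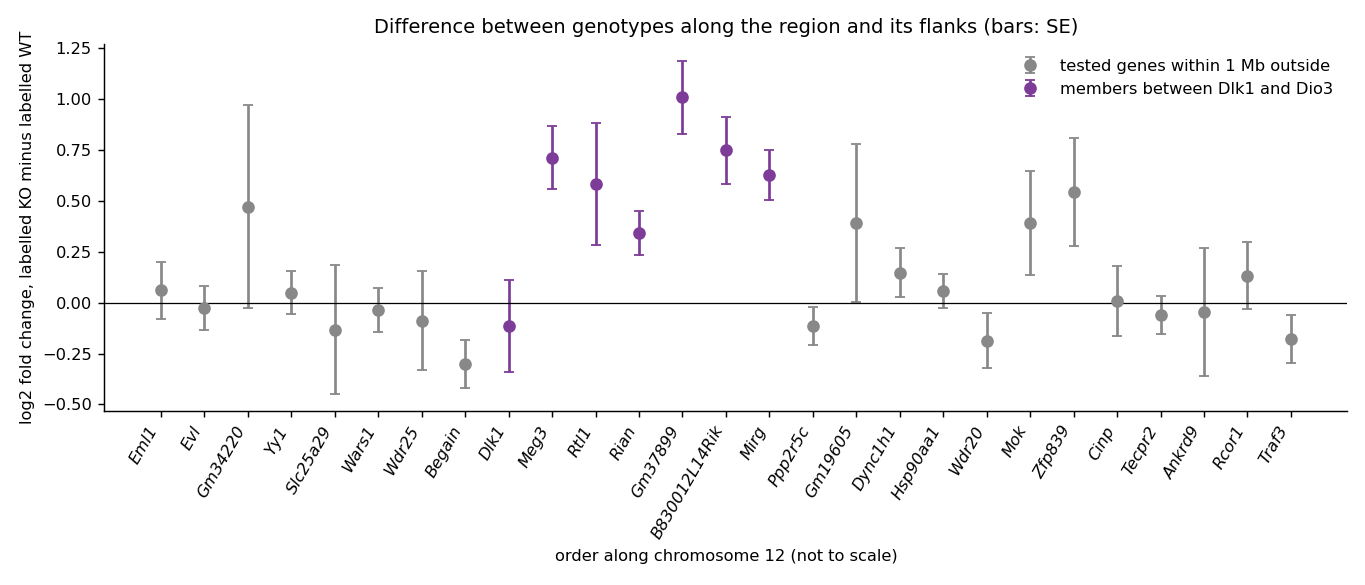
Fitted log2 fold change between libraries labelled TAAR5-KO and WT (vertical axis, bars show the SE) for the 7 transcripts tested (purple) and the 20 tested features within 1000000 bases outside the region (grey), placed in chromosome order and not to scale. The purple points from Meg3 to Mirg lie between 0.34 and 1.01, whereas Dlk1 lies at −0.11 and the grey points run from −0.30 to 0.54 with none called.

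Next, the covariation of the transcripts was described within genotypes, on log2 CPM after the mean of each genotype label had been subtracted, so that the genotype difference did not enter. All correlations are over 12 libraries that share their depth and TMM factor with every other gene, and they are descriptions. Meg3 correlated with B830012L14Rik at r = 0.80 (Spearman's rho 0.73), with Gm37899 at 0.73 (rho 0.71), with Rian at 0.68 (rho 0.57), with Rtl1 at 0.60 (rho 0.45) and with Mirg at 0.55 (rho 0.64). Ordered among the 13901 other features tested, these were ranks 43, 129, 230, 559 and 807. Meg3 and Dlk1 had r = 0.39, which was −0.05 without NK3 and NK11, the libraries farthest from the median of Meg3. The pooled value thus rested on them, and mainly on NK3. There Dlk1 lay −1.08 from its genotype mean on the log2 scale, against −0.08 in NK11. The other 5 values without these libraries lay between 0.56 and 0.72.

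The order of the transcripts was not the same under both labels. Across the 6 libraries labelled WT, r with Meg3 was 0.96 for B830012L14Rik, 0.95 for Gm37899, 0.91 for Rian and 0.87 for Rtl1, 0.63 for Dlk1 and 0.32 for Mirg. In the 6 labelled TAAR5-KO, it was 0.74, 0.54, 0.52 and 0.32 for B830012L14Rik, Gm37899, Rian and Rtl1, 0.45 for Dlk1 and 0.84 for Mirg. Whether these values differ between the labels was not tested. Rian and Rtl1, which stand next to each other on opposite strands, correlated at r = 0.78 (rho 0.79), while Mirg had r = 0.13 with Rian and −0.05 with Rtl1. The coefficient of variation of Mirg within each label (8.17% and 11.2%) was below counting error (12.9% and 16.2%). That of Dlk1 under the WT label was below it too (4.92% against 12.1%). Their deviations cannot be told from counting error there, so a low r of either is not read as less covariation. The median r with the other 6 transcripts was 0.67 for Rian, 0.64 for Meg3, 0.63 for B830012L14Rik, 0.60 for Gm37899, 0.46 for Rtl1, 0.32 for Dlk1 and 0.25 for Mirg, against medians over all features between −0.04 and 0.0019.

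**Figure D3:**
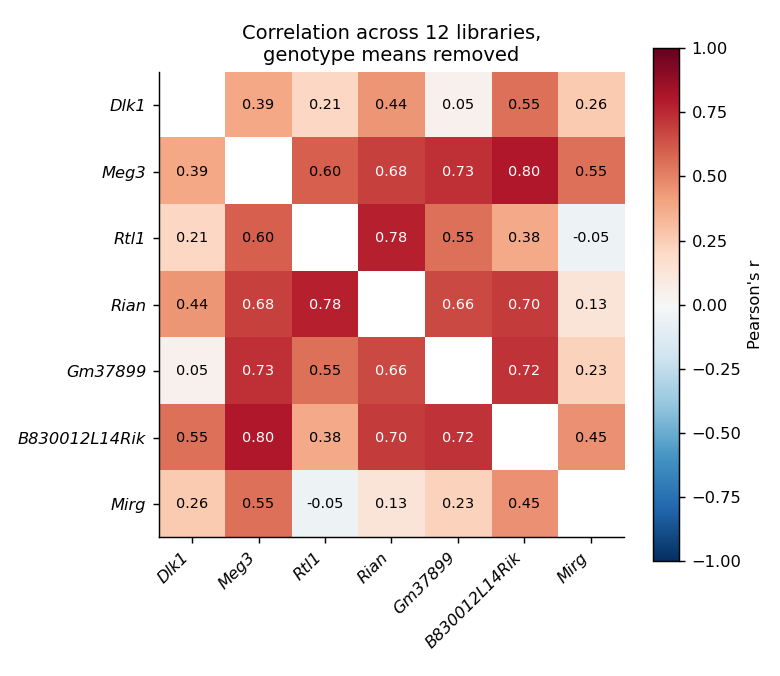
Pearson's r between pairs of the 7 transcripts tested, over 12 libraries with the mean of each genotype label subtracted, on a colour scale from −1 to 1 and in chromosome order. The square from Meg3 to B830012L14Rik holds values of 0.38 and more, while the values of Dlk1 at one end run from 0.05 (Gm37899) to 0.55 (B830012L14Rik) and those of Mirg at the other from −0.05 (Rtl1) to 0.55 (Meg3). Mirg under both labels and Dlk1 under the WT label varied less than counting error, so their low values are not read as less covariation.

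The feature most like Meg3 in this measure was Snhg11, a long non-coding RNA of chromosome 2 that hosts snoRNAs. It correlated with Meg3 at r = 0.97 (rho 0.95), the highest of the 13901 features, at 0.96 without NK3 and NK11, at 0.97 within the TAAR5-KO label and at 0.98 within the WT label. In its own test, Snhg11 had 69.1 ± 10.6 CPM in libraries labelled TAAR5-KO and 44.8 ± 5.31 CPM in those labelled WT (SD, n = 6 each; log2 fold change 0.63, SE 0.12, edgeR likelihood ratio adjusted p = 2.58e-04). The next in order for Meg3 were Nit2 (0.89), Safb2 (0.89), Cep57 (0.88) and Tra2a (0.88), of which only Tra2a, a splicing regulator, was called between the labels. For Rian the 5 most alike outside the region were Wdfy4 (0.94), Erich3 (0.93), Klhl1 (0.91), Apol8 (0.91) and Grik2 (0.90), and for Mirg they were Mettl2 (0.91), Alms1 (0.88), Xpo1 (0.88), Trim13 (0.87) and Arid3a (0.87). None of these 10 was called, and no feature was among the 5 of more than 1 transcript. As Mirg varied less within labels than counting error, its 5 are uncertain. Malat1, a nuclear long non-coding RNA, had r = 0.81 with Meg3 and rank 34.

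**Figure D4:**
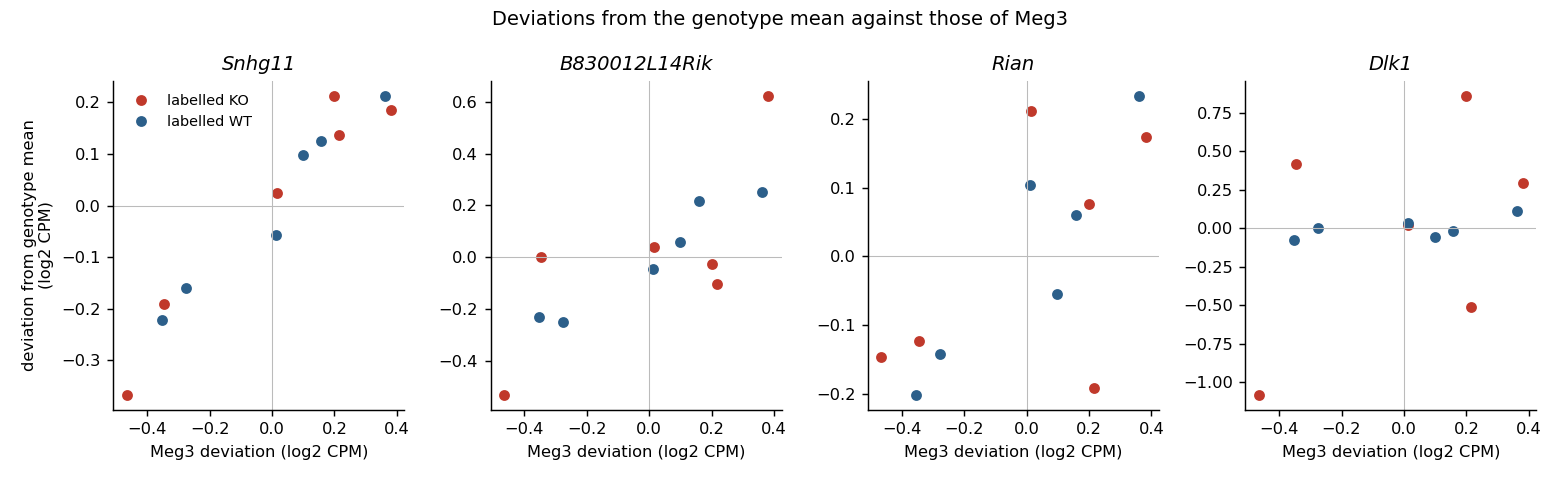
Deviation of each library from the mean of its genotype label in log2 CPM, for Meg3 (horizontal axes) and for Snhg11, B830012L14Rik, Rian and Dlk1 (vertical axes), in libraries labelled TAAR5-KO (red) and WT (blue). Snhg11 follows a narrow line (r = 0.97), B830012L14Rik a wider one (r = 0.80) and Rian a wider one still (r = 0.68). For Dlk1, r is 0.39 over all 12 libraries. Its points labelled WT lie near 0 on the vertical axis (r = 0.63 among them).

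Genes that act on the region or with its products were taken from lists. None was called among 18 regulators of imprinting and of the region (median log2 fold change 0.08), 13 genes of microRNA processing and Argonaute proteins (0.04), 4 box C/D snoRNP proteins (0.02), 10 genes of the Notch pathway (−0.07) and 10 genes of thyroid hormone transport, conversion and reception (−0.05). Among 28 tested imprinted genes of other regions, 2 were called, 1 in each direction, against 0.957% of all features called higher and 0.691% called lower. Kcnq1ot1, a long non-coding RNA that silences its neighbours on the paternal chromosome, was higher, with 40.2 ± 8.98 against 28.0 ± 4.53 CPM (SD, n = 6 each; log2 fold change 0.52, SE 0.14, edgeR adjusted p = 0.0276, and 0.122 by the quasi-likelihood test). Ndn, the paternally expressed gene of necdin, was lower, with 6.85 ± 1.11 against 14.2 ± 3.95 CPM. The median of these 28 was −0.06, so most did not share the direction of the transcripts described here.

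Among 17 tested long non-coding RNAs of other chromosomes or regions, 5 were called higher and 0 lower, with a median log2 fold change of 0.29 (0.957% and 0.691% over all features). They were Malat1 (955 ± 144 against 649 ± 92.0 CPM, SD, n = 6 each), Snhg11, Ftx (log2 fold change 0.69), Mir124a-1hg (0.54) and A330023F24Rik (0.71). Within genotypes, the median r of Meg3 with these 17 RNAs was 0.41, with 14 of 17 above 0, against a median of −0.02 over all features. The list was chosen with results of these libraries known, so its counts are no independent evidence.

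Several measures moved with the labels or the libraries, and their part in the differences above was not tested. The 7 astrocyte markers and the 6 oligodendrocyte, 4 oligodendrocyte precursor and 6 microglia markers all had negative log2 fold changes, with medians of −0.396, −0.205, −0.250 and −0.352 and 1, 0, 1 and 2 of them called lower (0.691% over all features). Summed levels of oligodendrocyte precursor markers were 11.8 to 16.4 CPM in libraries labelled TAAR5-KO and 17.3 to 19.4 CPM in those labelled WT, and those of 8 neuron markers were 785 to 1124 and 879 to 1144 CPM with none called. Markers of D1 neurons had a median log2 fold change of 0.315 and markers of D2 neurons one of 0.133, with none of either called. Within genotypes, r with their summed levels was highest for Gm37899 (0.68 for D1 and 0.69 for D2) and lowest for Mirg (−0.20 and −0.11). The other called transcripts, Meg3 (0.33 and 0.38) and B830012L14Rik (0.47 and 0.38), lay between. With the neuron markers, r was −0.33 for Meg3, −0.40 for B830012L14Rik and −0.18 for both Gm37899 and Mirg. It was −0.35 for Rian and −0.48 for Rtl1. With markers of cortical pyramidal neurons, r was also negative for each of them, from −0.17 (Mirg) to −0.47 (B830012L14Rik). Rian correlated at 0.55 and Rtl1 at 0.44 with the share of ribosomal RNA, whereas Meg3 and Mirg were at 0.07 and −0.06. With log2 counts outside ribosomal RNA, Rtl1 was at −0.58 and Rian at −0.33, against 0.12 for Meg3 and 0.40 for Mirg. Dlk1 correlated at −0.69 with the neuron markers, at −0.66 with markers of cortical pyramidal neurons and at −0.46 with astrocyte markers. In the other direction, it was at 0.55 with microglia, 0.54 with hypothalamic neuron and 0.46 with choroid plexus markers. Summed choroid plexus markers ran from 1.23 to 456 CPM in libraries labelled TAAR5-KO and from 2.08 to 278 CPM in those labelled WT. Those of hypothalamic neurons ran from 0.24 to 2.1 and from 0.43 to 4.7 CPM, with none of either list called.

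The 6 pituitary markers had summed levels of 0.313 to 5.59 CPM in libraries labelled TAAR5-KO and 0.418 to 56.4 CPM in those labelled WT, and none was at 0 in all libraries. Of these markers 3 were tested, and 1, growth hormone (Gh), was called lower in libraries labelled TAAR5-KO, against 0.691% of all features. Its log2 fold change was −3.59 (SE 1.01, edgeR likelihood ratio adjusted p = 0.066, and 0.18 by the quasi-likelihood test). Gh had 127 counts in NK11 and 104 in NK12, and at most 12 in any other library. The list did not single out this pair throughout, since prolactin (Prl) had 46.5 CPM in NK11 and 11.1 in NK12 but also 14.8 in NK10 and 4.66 in NK5, labelled TAAR5-KO, while Pomc had 3.38 CPM in NK11 and 0.226 in NK12, below NK9 (0.329) and NK10 (0.241). Within genotypes, the summed pituitary markers correlated with Gm37899 at r = −0.73, with Meg3 at −0.37, with B830012L14Rik at −0.40 and with Mirg at −0.15. They were at −0.31 with Rian and −0.37 with Rtl1, and at 0.21 with Dlk1. Without NK11 and NK12, the libraries with over 100 Gh counts and a choice made after the data were seen, 2 of the 7 transcripts, Gm37899 and Mirg, were called higher. Over all 13902 features, 25 were called higher and 35 lower in that fit, against 133 and 96 with all libraries. Without this pair, the log2 fold changes of Meg3 (0.56) and B830012L14Rik (0.61) were not past the threshold, and that of Rtl1, which was not called in either case, was 0.18.

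Scaling mattered as well. With library size as the only scaling, 0 of the 7 were called. Over all 13902 features, 0 were then called higher and 7 lower, and the median shifted to −0.49 on the log2 scale. Rian was then at −0.12, Mirg at 0.18, B830012L14Rik at 0.24, Meg3 at 0.33 and Gm37899 at 0.46. Measured from the median of all features, these were 0.37, 0.67, 0.74, 0.82 and 0.95, against 0.35, 0.63, 0.75, 0.72 and 1.02 on the TMM scale. With the GC trend of each library removed, the same 4 transcripts were called and Rian was at 0.15. In that fit, 47 of all 13902 features were called higher. In the 12 fits that left out 1 library each, Meg3, Gm37899, B830012L14Rik and Mirg were called in all 12, and Rian was called without NK4, NK6 or NK9. Over all 13902 features, these fits called from 60 (without NK11) to 232 (without NK4) higher.

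**Figure D5:**
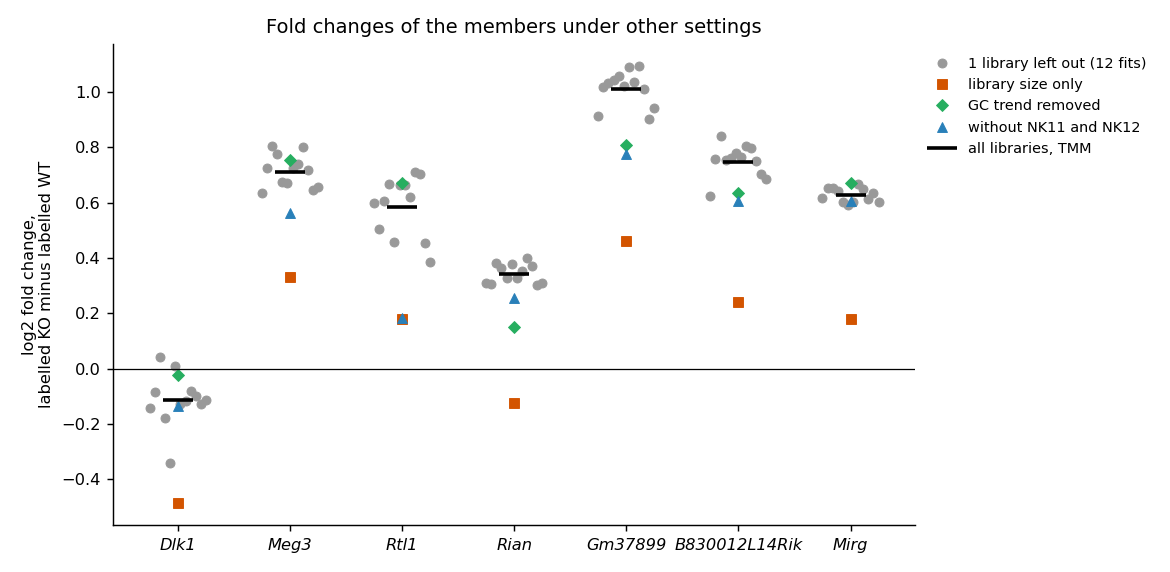
Log2 fold change of the 7 transcripts tested (vertical axis) on the TMM scale with all libraries (black bars), in 12 fits without 1 library each (grey), with library size as the only scaling (orange), with the GC trend of each library removed (green) and without NK11 and NK12 (blue). Grey points of Meg3, Gm37899, B830012L14Rik and Mirg stay above 0.59, and all orange points lie below the black bars, on a scale whose median over all features is −0.49.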

How the data were processed

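Striatal RNA was depleted of ribosomal RNA and made into directional libraries. The authors trimmed single-end reads with cutadapt 4.1, aligned them to GRCm39 with STAR 2.7.11b and deposited whole-number counts per feature of GENCODE M35, made with featureCounts 2.0.6, with the merged exon length of each feature. Strand setting and treatment of reads with several matches are not given in the sources used here. The table also holds 12 per-library count columns that are not used here.

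The filter kept 13902 features, those that reached a CPM of 0.5 in 3 libraries or more. Genotypes were compared with glmFit and glmLRT of edgeR 4.0.16 (R 4.3.3) after TMM scaling, without covariates, with an adjusted p under 0.1, which are the test and threshold of the study's methods. The calls are not those of the study, which tested 13053 features and reported more genes lower than higher in TAAR5-KO mice. Here 133 features were called higher and 96 lower. With the filter set on TMM library sizes, 13053 features were kept, of which 135 were called higher and 99 lower. The quasi-likelihood test, DESeq2 1.42.0 and the alternatives of the closing section were computed beside it. Standard errors came from the same fit. Correlations used log2 CPM with a prior count of 2.

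The transcripts, lists and tests were chosen with earlier results of these data known. Named were all 8 transcripts, other features of the region with at least 10 counts, the 2 nearest tested features on each side since none of the flanks was called, the 5 features most like Meg3, Rian and Mirg, and called genes of the function lists. Malat1's correlation and the marker genes named were chosen after their values were seen. Sequences came from RefSeq and were placed on GRCm39 by exact match. Biotypes came from GENCODE M39 on the same build. A count of 0 allows up to 3 counts, which covers counting error only, and p-values measure the spread between libraries, each taken as 1 animal.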

Additional observations from a re-analysis of the deposited data

Results flagged for a closer look

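Of the 16 groups of 6 libraries examined (8 transcripts, each under both labels), 1 held a library far from the rest. Gm37899 had 4.98 CPM in NK1, labelled TAAR5-KO, and the gap to the next library was 0.748 of the range of that group, above Dixon's critical value for 6 samples. NK1 had the lowest TMM factor of all libraries (0.375). Chance alone flags about 1 in 20 groups. Without NK1, the log2 fold change of Gm37899 was 0.91 and still past the threshold.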

How the results depend on the processing

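Each of the log2 fold changes of the 7 tested transcripts was computed under up to 24 alternatives, and 154 of these values kept their direction and their side of the threshold, 3 reversed and 10 changed side. Over the fits that left out 1 library, the number of features called ran from 90 (without NK11) to 421 (without NK4), that of the transcripts from 4 to 5, that of the 20 tested flank features from 0 to 0, and that of other listed genes from 6 to 10. The median r within genotypes of the pairs among Meg3, Rian and Mirg only ran from 0.46 to 0.70 around 0.55. With all libraries, this median was the value of Meg3 with Mirg, between 0.68 for Meg3 with Rian and 0.13 for Rian with Mirg. The log2 fold change of Dlk1 ran from −0.34 to 0.0425.

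Against 229 features called, there were 63 by the quasi-likelihood test, 7 with library size only (0 higher, 7 lower), 93 without a filter, 83 with the GC trend removed, 108 at an adjusted p under 0.05 and 60 without NK11 and NK12. With library size only, the counts of the transcripts and of other listed genes called were 0 and 0. The median r among Meg3, Rian and Mirg was then 0.97, and Rian reversed to −0.12 where all features moved to a median of −0.49. Without NK11 and NK12, which was chosen after the data were seen, the counts were 2 and 3. Dlk1 reversed to 0.0425 without NK3 and to 0.0095 without NK6. The cause of these shifts was not tested. No paired analysis was possible because the columns carry library numbers that are not tied to the animal numbers of the labels. Depth limits Dio3 (35 counts in all) and the microRNA and snoRNA features.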
